A study of Mus musculus with 48 samples.

Results

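Blood endothelial cells (BECs) and lymphatic endothelial cells (LECs) line the blood and lymph vessels of the lymph node, and the comparison described here asked for which genes the change with lymphoma differed between them. For each gene the change in LECs (tumor minus naive) was subtracted from the change in BECs, and this difference of differences was tested itself. The samples were chosen by their titles as the naive and tumor replicates of BECs and of LECs, which made 12 of the 24 biological replicates of the series and 24 of its 48 array strips. Fibroblastic reticular cells (FRCs) and the double-negative (DN) cells of the same nodes made up the other replicates. They took part in the normalization, the background level, the choice of probes and genes and the estimate of the spread. Their group means did not enter the difference itself.

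The 4 groups were BECs of naive mice, BECs of tumor mice, LECs of naive mice and LECs of tumor mice, with 3 replicates each and 2 strips per replicate. The mice were called wild type in the labels, and strain, sex, age and the day of collection were not given for the arrays. Tumor mice had received 200000 to 400000 Eμ-*Myc* lymphoma B cells into a vein, and lymphoma cells made up 4% to 10% of the lymphocytes of their nodes. Skin-draining nodes were digested, leukocytes were removed with CD45 beads, and BECs (CD31+ gp38-) and LECs (CD31+ gp38+) were sorted as CD45-, Ter119- and 7AAD- cells. Each array sample was 80 ng of RNA combined from 4 to 6 sorts. A replicate was thus a pool, and the labels do not say that replicates came from separate animals. The p-values therefore measure the spread between pools, to which the FRC and DN pools of the series contributed.

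Eμ-*Myc* cells carry *Myc* under an immunoglobulin heavy chain enhancer and give rise to aggressive B cell lymphomas in mice. In the lymph node, specialised BECs form high endothelial venules (HEVs), where sulfated and fucosylated sugars bind L-selectin on circulating lymphocytes, adhesion molecules arrest these cells and CCL21 directs them into the tissue. LECs line the sinuses through which lymph, antigen and dendritic cells arrive and lymphocytes leave. Both vessel systems grow by endothelial division when a node swells.

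The sorted cells carried the markers of their labels. Summed over 18 BEC identity genes, the level was 18.27 to 18.39 (log2) in naive BECs and 18.01 to 18.26 in tumor BECs, against 16.2 to 17.3 in the LEC replicates. Over 19 LEC identity genes it was 17.46 to 17.69 in LECs and 14.1 to 16 in BECs. *Prox1*, the transcription factor that maintains lymphatic identity, averaged 13.27 in naive LECs and 8.86 in naive BECs, and *Flt1*, a VEGF receptor of blood vessels, averaged 15.36 in naive BECs and 12.67 in naive LECs. Each set of markers was thus higher in its own cell type, and neither was absent from the other sort.

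Markers of other cells differed between replicates of 1 group, and these values bear on every result below. Expressed as the median over the 15 pancreatic acinar genes measured, of 16 listed, tumor LEC replicates 1 and 2 lay 7.24 and 5.22 (log2) above the mean of naive LECs, while all other BEC and LEC replicates lay between -0.16 and 0.17. In 9 of 13 listed leukocyte genes, tumor BEC replicates 1 and 2 lay 2.08 and 3.09 above naive BECs and replicate 3 lay 0.19 above, against 0.38, 1.51 and 0.53 in tumor LECs. *Ptprc*, which encodes the CD45 used to exclude leukocytes, did not rise above background in any group. The 20 fibroblast genes lay 1.92 and 1.67 above naive BECs in tumor BEC replicates 2 and 3, and -0.11 in replicate 1. Summed over these genes, the level was 12.48 to 13.59 (log2) in naive and 12.65 to 15.03 in tumor BECs. In LECs it was higher, at 15.17 to 15.38 in naive and 15.61 to 15.78 in tumor replicates, with a median change of 0.08 over the genes. BEC identity genes lay 0.77 above naive LECs in tumor LEC replicate 2 and at -0.89 and -0.62 in replicates 1 and 3, with *Esm1*, a marker of sprouting blood vessels, at 12.9 in replicate 2 against 9.5 and 9.4. Each tumor BEC replicate thus had raised markers of leukocytes, of fibroblasts or of both, and only replicate 3 of the tumor LECs was without raised acinar markers. Fewer cells of a type and less RNA per cell cannot be told apart in such pools.

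**Figure D1:**
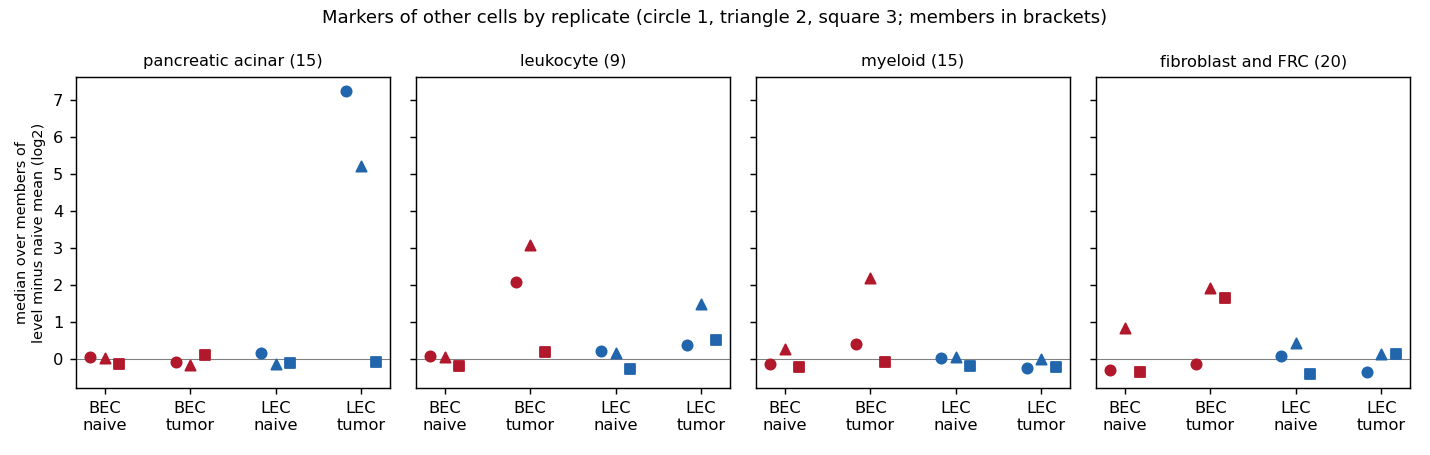
Markers of 4 other cell types by replicate. Each point is the median over the list's measured genes of the log2 level minus the mean of the naive replicates of the same cell type (y axis), for the naive and tumor replicates of BECs (red) and LECs (blue). Acinar markers lie at 7.24 and 5.22 in 2 tumor LEC replicates, leukocyte markers at 2.08 and 3.09 in 2 tumor BEC replicates, and fibroblast markers at 1.92 and 1.67 in 2 tumor BEC replicates.

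Strips held 947636 to 1044181 beads, 20 to 22 of them for the median probe code, and the strips of a replicate correlated at 0.991 to 0.9935. The lowest correlation between replicates of a group was 0.961, in tumor BECs. Each cell type occupied its own slide, and naive replicates had the same places on each slide. A place effect shared by the slides cancels in the difference of differences, while any other effect of place and the effect of the tumor cannot be told apart.

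The change with lymphoma differed measurably between BECs and LECs for 1 of 13119 genes tested (0.00762%), *Adamtsl2*, which rose in LECs while its change in BECs lay below 0 and did not pass. No gene (0%) had a significantly higher change in BECs (limma, adjusted p under 0.05). The unadjusted p was under 0.05 for 710 of the 13119 genes, near the share that this threshold passes without any difference. For 425 genes (3.24%) the tumor minus naive differences between replicates of BECs did not overlap those of LECs. The count of 1 was 0 under several alternatives, among them BECs and LECs fitted alone and a replicate block within cell type, and 174 with array weights. The separate contrasts called many more genes. In BECs 472 genes (3.6%) rose and 195 (1.49%) fell with lymphoma, and in LECs 103 (0.785%) rose and 18 (0.137%) fell. Among these, 87 genes rose in both cell types, 1 fell in both and none rose in one and fell in the other. These calls include tumor BEC replicates 1 and 2, those with leukocyte markers, and tumor LEC replicates 1 and 2, those with acinar markers. A fit without either pair leaves a lone tumor replicate, so its number of calls cannot be set beside these. The part of those markers in the calls was not tested. The shared calls were 72.7% of the LEC calls and 13.2% of the BEC calls. A gene called in BECs and not in LECs is not thereby shown to differ, and for all but 1 of these genes the difference itself did not pass.

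The precision of the difference bounds what could have been seen. Over all genes the median difference was -0.011 (log2), and 48.6% of genes lay above 0. The median standard error was 0.34, with quartiles of 0.27 and 0.46, and the median 95% interval reached 0.7 to either side, which is 1.63-fold. For 6729 genes (51.3%) the interval lay within 1 log2 unit of 0, so that a difference beyond 2-fold is outside their intervals. For the remaining genes the interval reached past 1 log2 unit on at least one side.

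**Figure D2:**
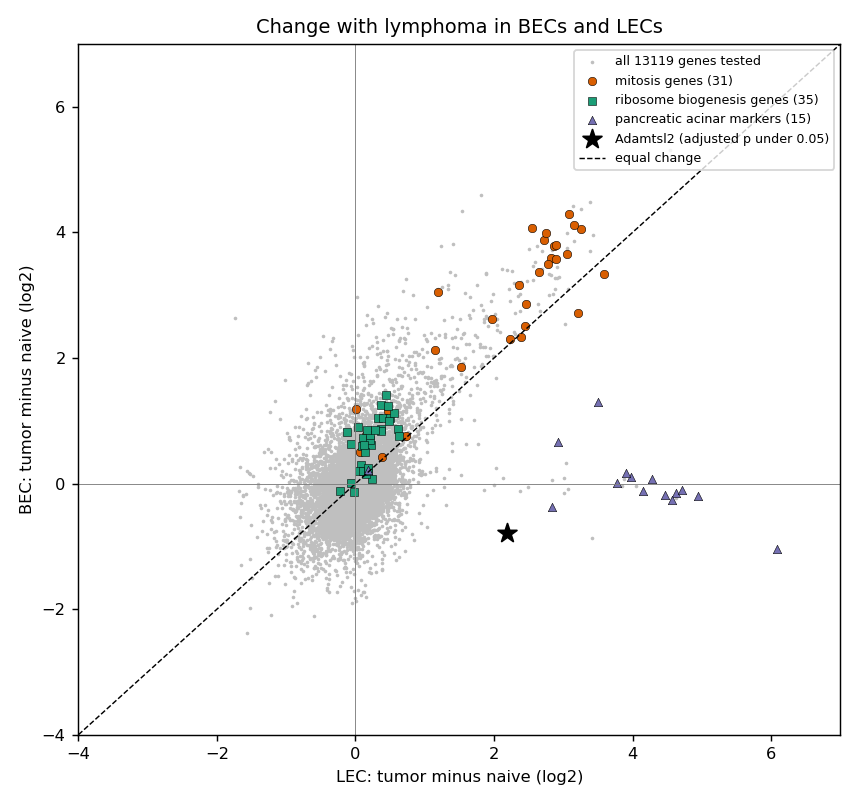
Change with lymphoma in LECs (x axis) and in BECs (y axis), both as log2 tumor minus naive, for all 13119 genes tested. Mitosis genes (orange, 31) lie at upper right and mostly above the line of equal change, ribosome biogenesis genes (green, 35) lie above 0 in BECs and near 0 in LECs, acinar markers (violet, 15) spread along the LEC axis, and *Adamtsl2* (star) lies at 2.19 in LECs and -0.79 in BECs.

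*Adamtsl2* encodes a secreted glycoprotein of the extracellular matrix that binds fibrillin and latent TGF-beta binding protein. It lies at chr2:27079336-27108981 (GRCm38.p6) and was measured by a single probe. Its levels were 5.9, 5.7 and 6 (log2) in naive LECs and 7.2, 8.5 and 8.5 in tumor LECs. In BECs they were 6.3, 6.8 and 6.7 in naive mice and 5.5, 5.7 and 6.2 in tumor mice. All tumor LECs lay above all naive LECs, and all tumor BECs lay below all naive BECs, partly at or under the background level of 5.62. The gene rose in LECs by 2.19 ± 0.31 (SE, adjusted p = 0.0013), while the change in BECs was -0.79 ± 0.31 and did not pass (adjusted p = 0.15). The difference was -2.98 ± 0.43 with a 95% interval of -3.89 to -2.08 and an adjusted p of 0.018 by limma. Its size held with the acinar-marked LEC replicates left out (-3.46, adjusted p = 0.0028). With the leukocyte-marked BEC replicates left out it was -2.59, and the adjusted p was 0.93, with a lone tumor BEC replicate taken to vary like the other groups. With the 12 BEC and LEC replicates fitted alone the difference kept its size and did not pass (adjusted p = 0.22).

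Below *Adamtsl2*, the genes with the smallest p-values lay short of the threshold, the next at an adjusted p of 0.1. With it they were 12 genes at an adjusted p under 0.25, of which 10 had a lower and 2 a higher change in BECs, and they are named here after their values were seen. In 8 of the 12 the change passed in BECs alone, in 4 in LECs alone and in none in both, so each passed in a single cell type. As they were picked for small p-values, their sizes are descriptions.

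The larger number of the 12 genes fell in BECs. *Nodal*, a ligand of the TGF-beta family at chr10:61417972-61425338, measured 7.7, 7.3 and 7.3 in naive BECs and 6.3, 6.2 and 6.8 in tumor BECs. In LECs it was 5.2, 5.4 and 5.2 in naive mice and 5.4, 5.7 and 5.7 in tumor mice. It fell by 0.97 on the log2 scale in BECs (adjusted p = 0.0011) and stayed near background in LECs, with a difference of -1.28 ± 0.22 (adjusted p = 0.1). *Col13a1*, which encodes a transmembrane collagen, measured 9, 8.9 and 9.3 in naive and 7.4, 6.6 and 7.7 in tumor BECs and lay between 4.7 and 5.3 in all LECs. The BEC values did not overlap, and the difference was -1.96 ± 0.41 (adjusted p = 0.2). *Sgpp2*, a phosphatase that degrades sphingosine-1-phosphate, measured 7.5, 7.1 and 7.2 in naive BECs and 4.9, 5.1 and 6.5 in tumor BECs, with a difference of -1.86 ± 0.39 (adjusted p = 0.2). LECs held 5 to 5.4 of it throughout, at background. *Slc26a10*, *Ccdc85a*, *Dnm3* and *Hapln3* had the same pattern of a fall in BECs, with differences of -1.62, -1.38, -1.18 and -1.79 and adjusted p-values of 0.18 to 0.21. A gene at background in LECs could not be seen to fall there.

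Other genes of this rank moved in LECs. *Bmp2*, a ligand of bone morphogenetic protein receptors, measured 7.3, 7 and 7.1 in naive LECs and 5.4, 5.3 and 5.8 in tumor LECs, and lay between 4.8 and 5.5 in all BECs, under the background level. It fell by 1.66 in LECs (adjusted p = 0.00018), and its difference was 1.35 ± 0.26 (adjusted p = 0.14). *Gap43*, known as a growth cone protein of neurons, measured 4.9, 5.1 and 5.4 in naive LECs and 6.4, 6.8 and 6.7 in tumor LECs. It rose by 1.52 in LECs (adjusted p = 0.00034) and was not above background in BECs, and its difference was -1.39 ± 0.26 (adjusted p = 0.14). *Myo18b*, an unconventional myosin, rose by 1.28 in LECs and had a difference of -1.33 ± 0.25 (adjusted p = 0.14). *Mmp13*, a collagenase outside the 12 genes, measured 10.8, 10.6 and 11.4 in naive and 9.2, 9.2 and 9.8 in tumor LECs, with no overlap, and 5.2 to 6.2 in BECs. It fell by 1.57 in LECs (adjusted p = 0.0094), with a difference of 1.77 ± 0.41 (adjusted p = 0.34).

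On the side of a higher change in BECs, *Gsto1*, a glutathione transferase of the omega class, was well expressed in both cell types. It measured 10.7, 10.9 and 10.6 in naive BECs and 12.2, 12.2 and 11.4 in tumor BECs. In LECs it measured 11, 10.7 and 10.7, and then 10.6, 10.9 and 10.4. It rose by 1.22 in BECs (adjusted p = 0.0013), and the difference was 1.38 ± 0.29 (adjusted p = 0.2). The smallest of the tumor BEC levels was again that of replicate 3. *Slc19a1*, the reduced folate carrier and also outside the 12, measured 7.3, 7.1 and 6.6 in naive and 9.9, 10.6 and 8.2 in tumor BECs, against 9.1 to 9.7 in all LECs (difference 2.3 ± 0.55, adjusted p = 0.35). *Fcgr2b*, an Fc receptor of B cells, myeloid cells and some endothelium, measured 6.1, 6.1 and 5.8 in naive BECs and 9, 10.4 and 6.5 in tumor BECs, and 9.9 to 10 in naive LECs and 7.7 to 8.5 in tumor LECs. Its difference of 4.38 ± 1.1 was large and did not pass (adjusted p = 0.4). Its BEC levels ranked like the leukocyte markers of the same replicates, and their part in this difference was not tested.

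**Figure D3:**
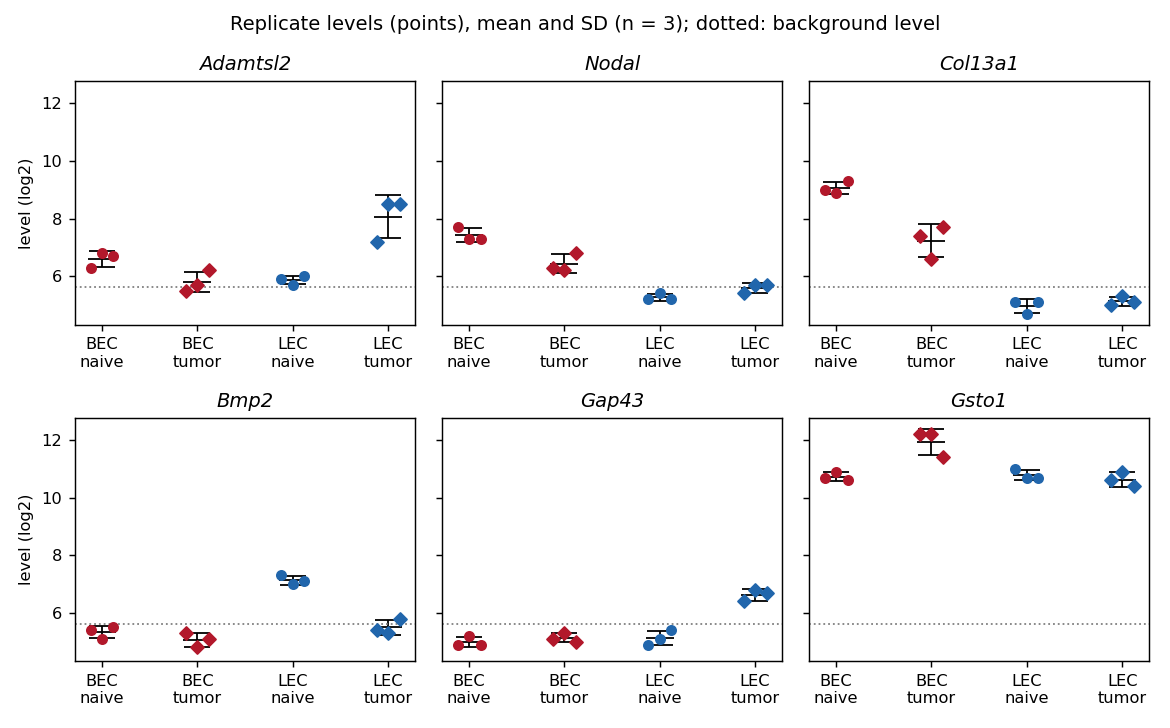
Levels by replicate of 6 of the 12 genes with an adjusted p under 0.25 for the difference. Points are replicate levels (log2, y axis), bars the mean and SD of 3 replicates, and the dotted line the background level of 5.62. *Adamtsl2* is high in tumor LECs alone, *Nodal* and *Col13a1* are lower in tumor than in naive BECs and near background in LECs, *Bmp2* falls to background in tumor LECs, *Gap43* appears in tumor LECs and *Gsto1* is higher in tumor BECs.

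Most mitosis genes rose in both cell types, and the difference passed for no gene of the cell cycle. Of 31 mitosis genes tested (of 44 listed), 26 rose in BECs and 21 in LECs, beside 3.6% and 0.785% of all genes. Their median changes were 3.05 and 2.46 (log2). Of 37 genes of DNA replication and nucleotide synthesis (of 42), 31 rose in BECs and 13 in LECs, beside the same shares of all genes. Their median changes were 1.88 and 1.37. The difference lay above 0 for 28 of the 31 mitosis genes, with a median of 0.7, and for 37 of the 37 replication genes, with a median of 0.46, beside 48.6% and -0.011 over all genes. The number of members above 0 is a description, since members of a list are not independent.

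*Cdk1*, the kinase that drives entry into mitosis (chr10:69335146-69352912), measured 8.1, 8.2 and 8.2 in naive BECs and 11.7, 11.8 and 10.9 in tumor BECs. In LECs it measured 6.2, 7.4 and 7.2 in naive mice and 10, 11.2 and 10.3 in tumor mice. Tumor and naive levels did not overlap in either cell type. It rose by 3.34 ± 0.39 in BECs (adjusted p = 0.00017) and by 3.59 ± 0.39 in LECs (adjusted p = 0.00018), and the difference was -0.25 with a 95% interval of -1.42 to 0.91. *Kif11*, a motor of the mitotic spindle, rose by 3.59 and 2.83, and *Cdc20*, an activator of the anaphase-promoting complex, rose by 2.62 and 1.97. Their differences were 0.76 (95% interval -0.58 to 2.1) and 0.66 (-0.73 to 2.04). For these 3 genes a difference within the interval was not detectable with these replicates.

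Some cell cycle genes had intervals of the difference away from 0 without passing the adjustment. The unadjusted p (limma) was under 0.05 for 3 of 31 mitosis and 2 of 37 replication genes, beside 710 of all 13119 genes. *Bub1b*, a kinase of the spindle checkpoint, measured 8.2, 8.6 and 8.6 in naive and 11.9, 12.1 and 10.4 in tumor BECs. In LECs it measured 9.8, 9.9 and 10.2 and then 10.9, 11.7 and 10.9, from a higher starting level. It rose in BECs by 3.05, while the change of 1.19 in LECs did not pass, and the difference was 1.86 (95% interval 0.54 to 3.18, adjusted p = 0.72). *Mcm10* and *Gins2*, which act in the loading and start of the replication helicase, had differences of 1.88 (0.38 to 3.38) and 1.45 (0.42 to 2.48). *Gins2* rose in both cell types, by 3.03 and 1.58. *Melk*, a kinase of dividing cells, was at background in LECs in all replicates and measured 5.1, 5.1 and 5 in naive and 6.2, 6.5 and 6.1 in tumor BECs, with a difference of 1.17 (0.38 to 1.97).

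By replicate, the median mitosis gene lay 3.49, 3.64 and 2.08 above naive in tumor BECs and 2.1, 3.19 and 2.2 in tumor LECs. The median replication gene lay 1.99, 2.34 and 1.21 above naive in tumor BECs and 1.08, 1.8 and 1.27 in tumor LECs. The ranges overlapped, and tumor BEC replicate 3 was at the level of the lower LEC replicates. With BEC replicates 1 and 2, those marked by leukocyte genes, left out, the median difference was -0.07 for mitosis genes, with 13 of 31 above 0, and -0.1 for replication genes, with 12 of 37 above 0. The tumor LEC medians ranked like the leukocyte markers of the same replicates and like the B lineage gene *Mzb1*, at 7.7, 10.4 and 9.2. Tumor BEC replicate 3 held *Mzb1* at 10, above the 7.6, 7.3 and 7.3 of naive BECs. The part of admixed cells in the medians of either cell type was not tested.

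**Figure D4:**
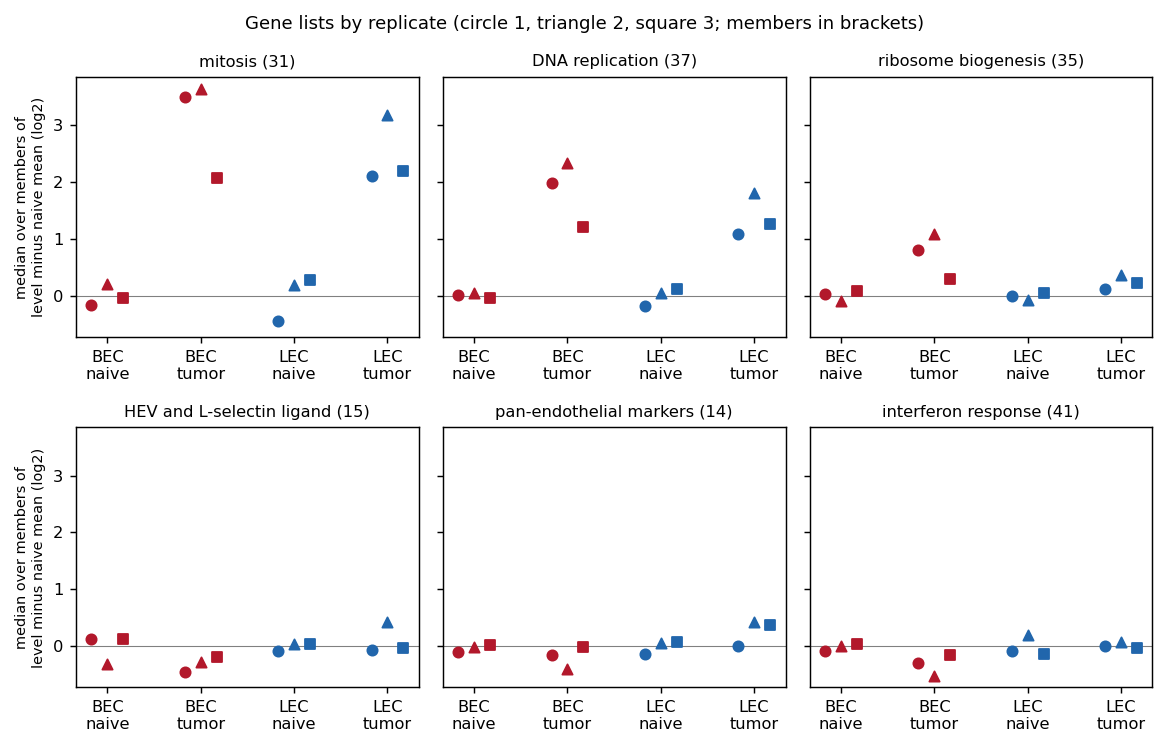
Gene lists by replicate. Each point is the median over the measured genes of a list of the log2 level minus the mean of the naive replicates of the same cell type (y axis), for BECs (red) and LECs (blue). Mitosis genes lie at 2.08 to 3.64 in tumor BECs and at 2.1 to 3.19 in tumor LECs, and replicate 3 is the lowest of the tumor BECs for mitosis, replication and ribosome biogenesis genes.

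Many promoters of mitotic genes hold CCAAT boxes and the cell cycle element TTTGAA, and the sequences are shown because these genes moved together in both cell types. In the 250 bases upstream of the annotated start (RefSeq, GRCm38.p6), CCAAT on either strand was found in 18 of the 25 mitosis genes with a sequence (72%), in 18 of 30 replication genes (60%) and in 34.5% of 27025 promoters. TTTGAA on either strand was found in 8 of the 25 mitosis genes (32%), in 5 of 30 replication genes (16.7%) and in 16.3% of all promoters. A match is a description of the letters and not of a bound site. Of the mitosis genes that rose in both cell types, *Cdc20*, *Cdk1* and *Kif11* had both motifs in a window that lay outside the gene, and these windows are printed 5′ to 3′ on the strand of the gene, with matches on either strand in capitals, none of which overlap. They lie at chr4:118437344-118437593 on the minus strand, chr10:69352913-69353162 on the minus strand and chr19:37376132-37376381 on the plus strand.
Cdc20: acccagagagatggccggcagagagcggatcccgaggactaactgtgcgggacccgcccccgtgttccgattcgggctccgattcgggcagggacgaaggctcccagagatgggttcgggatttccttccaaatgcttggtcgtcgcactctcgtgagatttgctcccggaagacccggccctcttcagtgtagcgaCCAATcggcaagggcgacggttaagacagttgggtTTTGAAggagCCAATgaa
Cdk1: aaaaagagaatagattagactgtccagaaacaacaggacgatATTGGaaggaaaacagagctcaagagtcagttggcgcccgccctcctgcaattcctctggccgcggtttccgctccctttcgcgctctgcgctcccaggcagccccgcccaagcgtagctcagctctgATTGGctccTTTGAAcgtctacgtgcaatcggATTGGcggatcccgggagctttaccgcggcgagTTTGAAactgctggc
Kif11: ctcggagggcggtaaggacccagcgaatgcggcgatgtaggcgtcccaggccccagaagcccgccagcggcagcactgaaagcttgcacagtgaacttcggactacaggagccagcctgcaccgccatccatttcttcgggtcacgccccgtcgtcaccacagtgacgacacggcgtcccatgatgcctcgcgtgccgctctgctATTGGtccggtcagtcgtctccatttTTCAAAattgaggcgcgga

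The start of *Cdk1* thus held 3 CCAAT matches and 2 TTTGAA matches in these bases, that of *Cdc20* 2 and 1, and that of *Kif11* 1 of each. The CCAAT matches read CCAAT in *Cdc20* and, on the opposite strand, ATTGG in *Cdk1* and *Kif11*. The changes of the 3 genes were 2.62 to 3.59 in BECs and 1.97 to 3.59 in LECs.

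Some ribosome biogenesis genes rose in BECs, and the difference passed for none. Of 35 such genes tested (of 42), 10 rose in BECs, beside 3.6% of all genes, with a median change of 0.72. None passed in LECs, beside 0.785% of all genes, and the median change there was 0.19. The difference lay above 0 for 33 of 35, with a median of 0.51. *Nhp2*, a protein of the small nucleolar particles that modify ribosomal RNA, measured 10.9, 10.7 and 10.9 in naive and 12.4, 12.6 and 11.8 in tumor BECs. In LECs it measured 10.9, 11 and 11.1 and then 11.3, 11.6 and 11.5, so tumor lay above naive in both. The difference was 0.97 ± 0.32 (95% interval 0.31 to 1.63, adjusted p = 0.7). *Noc4l*, *Ltv1* and *Wdr75*, which act in assembly of the small subunit, rose in BECs by 0.82, 0.9 and 0.86 and had changes of -0.12, 0.04 and 0.17 in LECs, which did not pass. *Npm1*, the abundant nucleolar protein nucleophosmin, had a difference of 0.49 (-0.19 to 1.17). By replicate the list lay 0.8, 1.09 and 0.3 above naive in tumor BECs and 0.11, 0.36 and 0.22 in tumor LECs, so BEC replicate 3 fell within the LEC range. Without BEC replicates 1 and 2 the median difference was 0.07, with 19 of 35 above 0.

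Among metabolic lists the differences were smaller. Oxidative phosphorylation genes had a median difference of 0.16 (37 of 43 above 0), cytosolic ribosomal protein genes 0.09, glycolysis and hypoxia genes 0, sterol and fatty acid synthesis genes -0.1 and fatty acid handling genes -0.08. In the glycolysis list 4 of 31 genes rose in BECs, beside 3.6% of all genes. Among them was *Pkm*, whose change was 0.92 in BECs and 0.81 in LECs, a value that did not pass there. Its difference was 0.1. *Cyp51*, an enzyme of cholesterol synthesis, rose by 1.02 in BECs, had a change of 0.11 in LECs that did not pass, and had a difference of 0.9 ± 0.34, which did not pass.

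Genes of HEVs mostly had differences under 0, and none passed. Of 15 genes of HEVs and L-selectin ligands tested (of 17), 13 had a difference under 0, the median was -0.46, and none passed in BECs, in LECs or in the difference. The median change was -0.45 in BECs and 0.06 in LECs. *Glycam1*, a sulfated L-selectin ligand, measured 15.7, 15.3 and 15.8 in naive and 14.7, 15.3 and 15.2 in tumor BECs. Its LEC levels were 14.9, 14.8 and 15.1 in naive and 15, 15 and 14.6 in tumor mice, close to those of BECs. The difference was -0.47 with a 95% interval of -2.26 to 1.33. Levels of *Glycam1*, and of *Ccl21a* in most BEC replicates, lay near 16.15, the highest value in the deposited table. That limits the differences that could be seen. *Chst4*, the sulfotransferase of the HEV epitope, measured 11, 9 and 11.2 in naive BECs and 9.1, 10.1 and 10 in tumor BECs, so naive replicate 2 lay below all tumor replicates. In LECs it was 5.7, 6.1 and 6.1 and then 6.3, 8.6 and 5. *Fut7*, the fucosyltransferase of the same pathway, measured 10.2, 8.5 and 10.3 in naive and 8, 9.5 and 9.4 in tumor BECs, so naive replicate 2 lay within the tumor range. LECs held *Fut7* at 6.1, 6.1 and 6.3 in naive and 6.5, 8.4 and 5.8 in tumor mice. The differences of *Chst4* and *Fut7* were -1.3 (-3.25 to 0.64) and -1.41 (-3.03 to 0.2). With 1 replicate left out they ranged from -2.14 to -0.3 and from -1.99 to -0.67. Both were nearest 0 without tumor LEC replicate 2, whose BEC identity markers were raised. The part of those markers was not tested.

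*Gcnt1*, which makes the branched O-glycans that carry these sugars, measured 12.6, 10.8 and 12.7 in naive and 10, 11.1 and 11.3 in tumor BECs, and 10.6 to 11.5 in LECs. *Ccl21a*, the chemokine of HEVs and LECs, measured 15.6, 14.6 and 15.7 in naive and 13.3, 15.1 and 15 in tumor BECs. Naive BEC replicate 2 was the lowest naive value for all of these genes, the replicate whose fibroblast markers lay 0.86 and whose epithelial markers lay 1.57 above the naive mean. The differences of *Gcnt1* and *Ccl21a* were -1.65 (-3.65 to 0.36) and -1.19 (-3.93 to 1.56), and neither passed. With intervals this wide, a sizeable loss in BECs relative to LECs was not detectable here. *Madcam1*, the addressin of mucosal nodes, had a difference of 0.31 (-0.98 to 1.6).

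Adhesion and junction genes had a median difference of -0.19, with 15 of 22 below 0 and none passing. *Icam1* and *Vcam1*, ligands of lymphocyte integrins, had differences of -0.3 (-1.63 to 1.04) and 0.21 (-1.92 to 2.35). *F11r*, which encodes the junctional adhesion molecule JAM-A, was measured precisely, at 12.2, 12.2 and 12.2 in naive and 11.7, 11.5 and 11.9 in tumor BECs and 12.5 to 12.7 in LECs. Its BEC values did not overlap, yet its change in BECs of -0.52 did not pass (adjusted p = 0.079), and the difference was -0.53 (-1.03 to -0.03, adjusted p = 0.89). *Sphk1*, a kinase that makes sphingosine-1-phosphate, fell by 1.54 in BECs (adjusted p = 0.0032), from 12.6, 11.8 and 12.7 to 10.1, 11 and 11.3. In LECs it went from 12.9, 13 and 12.8 to 12.3, 12.2 and 12.2, a change of -0.63 that did not pass, and the difference was -0.91 (-1.75 to -0.07, adjusted p = 0.89).

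Genes that both endothelia share had differences under 0 throughout their list. All 14 pan-endothelial markers had a difference under 0, with a median of -0.42, and none passed. The median change was -0.25 in BECs and 0.23 in LECs. By replicate it was -0.15, -0.41 and -0.02 in tumor BECs and 0, 0.42 and 0.37 in tumor LECs, and without the leukocyte-marked BEC replicates the median difference was -0.23. *Erg*, a transcription factor of endothelial identity, measured 6.2, 6 and 6.9 in naive and 6.1, 5.5 and 6.4 in tumor BECs, and 5.6, 5.6 and 5.9 and then 6.1, 6.1 and 6.3 in LECs. The LEC values did not overlap, the BEC values did, and the difference was -0.85 (-1.57 to -0.14, adjusted p = 0.84). *Foxo1*, a transcription factor held in check by growth signals, had a difference of -0.67 (-1.17 to -0.18, adjusted p = 0.76). In the list of 26 endothelial transcription factors 20 lay below 0, with a median of -0.2.

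Among 32 genes of tip cells and angiogenesis 23 lay below 0, with a median of -0.41. By replicate the list lay -0.12, -0.12 and -0.01 from naive in tumor BECs and -0.06, 0.59 and 0.28 in tumor LECs. The highest of these was LEC replicate 2, whose BEC identity markers were raised, and without it the median was -0.17, with 19 of 32 below 0. The part of BEC markers in this median was not tested. *Clec14a*, an endothelial lectin of sprouting vessels, fell by 0.83 in BECs (adjusted p = 0.013), from 7.1, 6.9 and 6.9 to 5.7, 6 and 6.6, while LECs held it near background, and the difference was -1.1 ± 0.26 (adjusted p = 0.35). *Nrp2*, a co-receptor of VEGF-C and semaphorins, had a difference of -0.91 (-1.69 to -0.14). Notch and arterial genes had a median difference of -0.35 (13 of 21 below 0), venous and capillary genes -0.15, BEC identity markers -0.09 and LEC identity markers -0.42 (16 of 19 below 0). By replicate the LEC identity markers lay at -0.82, -0.3 and 0.17 from naive in tumor BECs and at 0.05, -0.22 and 0.11 in tumor LECs. *Reln*, one of the LEC identity genes, went the other way with 9.6, 9.6 and 8.9 in naive and 11.5, 12.1 and 9.6 in tumor BECs against 13.2 to 14 in LECs, and a difference of 1.81 (0.29 to 3.33) that did not pass. None of these lists held a gene that passed.

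Of 47 basement membrane and matrix genes tested (of 50), 3 rose in BECs and 2 in LECs, beside 3.6% and 0.785% over all genes, and the difference passed for none. *Col4a1* and *Col4a2*, the main chains of collagen IV and neighbours on chromosome 8, rose in LECs by 0.94 (adjusted p = 0.039) and 1.16 (adjusted p = 0.019). *Col4a2* measured 13.3, 13.8 and 13.4 in naive LECs and 14.1, 15.2 and 14.7 in tumor LECs. In BECs it was higher, with 15, 15.3 and 14.9 and then 15.4, 15.3 and 15.3, a change of 0.26 that did not pass. The highest value in the deposited table was 16.15, which limits the rise that could be seen at these levels. The differences of *Col4a1* and *Col4a2* were -0.75 (-1.39 to -0.11) and -0.91 (-1.62 to -0.19), with adjusted p-values of 0.86 and 0.82. Without tumor LEC replicate 2, whose BEC identity markers were raised, they were -0.54 and -0.61. The part of those markers was not tested. *Col18a1*, which encodes the precursor of endostatin, *Timp1*, an inhibitor of matrix proteases, and *Nid2*, a linker of basement membranes, rose in BECs by 1.24, 1.15 and 1.13, with changes in LECs of 0.64, 0.28 and 0.73. *Fbln2*, a glycoprotein of elastic fibres, had a difference of -1.73 (-3.29 to -0.17). Over the 47 genes the median difference was 0.1, with 29 above 0, and without the fibroblast-marked BEC replicates it was -0.09.

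In the TGF-beta and BMP list, to which *Bmp2* belongs, 23 of 30 genes lay below 0, with a median of -0.24. Without the leukocyte-marked BEC replicates the median was -0.07. *Tgfb2*, a TGF-beta ligand, measured 9.6, 9.3 and 9.4 in naive and 8, 7.8 and 9.2 in tumor BECs, and 8.4, 8.3 and 9 and then 8.9, 9.3 and 9.5 in LECs. BEC values lay lower and LEC values mostly higher with tumor, and the difference was -1.78 ± 0.51 (-2.85 to -0.71, adjusted p = 0.63). *Bmp6*, another BMP ligand, had a difference of -1.62 ± 0.58, and *Bmp2* was the member with the smallest p-value, on the other side. Receptors and SMADs of the pathway lay closer to 0, for example *Tgfbr2* at -0.24 and *Smad6* at -0.23. Among guidance genes (29 tested, median -0.23), *Sema3a*, a semaphorin that LECs held at 11.4 to 11.6 in all replicates, rose in BECs by 1.27 (adjusted p = 0.031), from 6.5, 6.5 and 6.2 to 7.8, 7.9 and 7.3, with a difference of 1.21 (0.22 to 2.19, adjusted p = 0.82).

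Interferon response genes mostly had differences under 0. Of 41 tested (of 49), 34 had a difference under 0, with a median of -0.3. In BECs 3 fell, beside 1.49% of all genes, and none passed in LECs or in the difference. *Tgtp1*, an interferon-induced GTPase, measured 9.6, 9.3 and 9.5 in naive and 7.6, 8 and 8.8 in tumor BECs and 7.4 to 8.2 in all LECs. It fell in BECs by 1.35 (adjusted p = 0.028), and the difference was -1.18 (-2.21 to -0.15, adjusted p = 0.88). *Igtp*, a related GTPase, fell in BECs by 0.92 and had a difference of -0.73, and *Cmpk2*, an interferon-induced nucleotide kinase, had a difference of -0.71 (-1.31 to -0.1). *Cd274*, which encodes PD-L1, fell in BECs by 1.27, while its change of -0.79 in LECs did not pass, and its difference was -0.48 ± 0.48. By replicate the list lay at -0.29, -0.52 and -0.15 from naive in tumor BECs and at 0, 0.07 and -0.04 in tumor LECs. The changes in BECs thus lay below those in LECs, each taken from the naive mean of its own cell type. Without the leukocyte-marked replicates the median difference was -0.13.

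Inflammatory and immediate early genes had median changes under 0 in both cell types. The median change of 36 NF-kappaB and inflammation genes was -0.4 in BECs and -0.34 in LECs, and that of 31 immediate early genes was -0.51 and -0.41, with median differences of -0.04 and -0.1. *Fosb*, *Nr4a2* and *Egr2*, transcription factors induced rapidly by many stimuli, fell in BECs by 1.17, 1.47 and 1.1, with changes in LECs of -0.84, -1.12 and -0.92 that did not pass. *Csf3*, the growth factor of granulocytes, fell in BECs by 2.38 and had a change of -1.57 in LECs that did not pass. MHC class I processing genes had a median difference of -0.06, MHC class II genes -0.1, and chemokines with their atypical receptors 0.2. *Cd276*, an inhibitory ligand of the B7 family, measured 6.9, 7.8 and 7.2 in naive and 10.9, 10.3 and 9.6 in tumor BECs. In LECs it measured 7.7, 8.1 and 7.7 and then 8.3, 10.4 and 9.6. It rose by 2.97 in BECs (adjusted p = 0.00032), the change of 1.65 in LECs lay just short (adjusted p = 0.056), and the difference was 1.32 (0.14 to 2.51, adjusted p = 0.88).

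**Figure D5:**
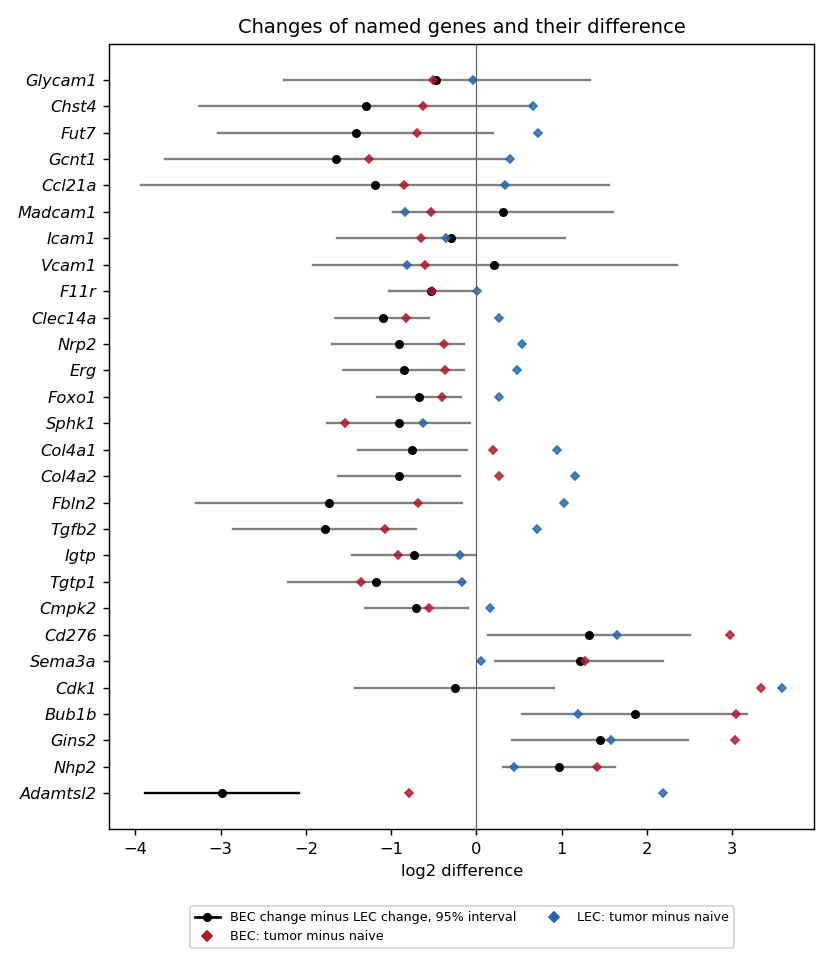
Changes of 28 named genes with lymphoma and their difference. Red and blue diamonds are the log2 change in BECs and LECs, black points the difference of these changes and lines its 95% interval (x axis). The interval of *Adamtsl2* lies farthest from 0, from -3.89 to -2.08. Those of many other genes, among them *Clec14a*, *Tgfb2* and *Bub1b*, exclude 0 without passing the adjustment. Those of several, among them *Glycam1*, *Ccl21a* and *Vcam1*, span more than 3 log2 units. Genes other than *Adamtsl2* and those the paper names were named after their values were seen.

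Of the 33 genes tested among those the paper names, none passed in the difference, 21 lay below 0 and the median was -0.25. *Cdk1* and *Col4a1* were the only ones called in a separate contrast. Of the vessel subset genes among them, the difference was 0.48 ± 0.99 for *Sox17*, -0.57 ± 1.06 for *Aplnr*, -0.61 ± 0.99 for *Esm1*, 0.01 ± 1.14 for *Cxcr4* and -0.92 ± 1.06 for *Selp*. Their standard errors were well above the median of 0.34 over all genes, so little can be read from them. *Ltbr*, the lymphotoxin-β receptor required by HEVs, was measured more closely, with a difference of -0.46 ± 0.33. *Jag1* and *Gja4*, a Notch ligand and an arterial connexin, had differences of -0.09 ± 0.3 and 0.14 ± 0.39.

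Pancreatic acinar genes had large differences that rested on tumor LEC replicates 1 and 2, and none passed. *Cela2a*, a pancreatic elastase, measured 6.4, 5.1 and 4.9 in naive and 15.6, 13.8 and 5.3 in tumor LECs and 4.7 to 7.7 in BECs, with a difference of -7.12 ± 2.17 (adjusted p = 0.66). *Cela3b* measured 12.6, 10.6 and 5.6 in tumor LECs and 4.9 to 5.4 in the naive LECs and in all BECs. The acinar list had a median difference of -4.2, with 14 of 15 below 0, and of 0.08 without tumor LEC replicates 1 and 2. With tumor LEC replicate 3 left out, 33 genes passed in the difference, 12 of them from the acinar list.

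On the BEC side, *Vpreb3*, a protein of the pre-B cell receptor complex, measured 5.8, 5.8 and 5.6 in naive and 11.2, 12.1 and 7.6 in tumor BECs, and 5.1 to 5.4 in naive and 5.6, 8.9 and 6.5 in tumor LECs. *Mzb1*, a chaperone of B lineage cells, measured 7.3 to 7.6 in naive and 12.4, 13.2 and 10 in tumor BECs, and 5.8 to 6.3 in naive and 7.7, 10.4 and 9.2 in tumor LECs. Both rose in BECs, by 4.59 and 4.42, all tumor replicates of both cell types lay above all naive replicates of that cell type, and the differences of 2.78 ± 1.37 and 1.28 ± 1.11 did not pass. *Cd79b*, a chain of the B cell receptor, measured 11.8, 12.6 and 9.2 in tumor BECs and had a difference of 2.33 ± 1.1. The B cell list had a median difference of 0.54 (11 of 15 above 0), leukocyte markers 1.04, myeloid markers 1.13, fibroblast markers 1.03, epithelial and Schwann cell markers 1.19, pericyte and smooth muscle markers 0.36 and plasma cell markers 0.71. *Actg2*, a smooth muscle actin, rose in BECs by 2.32, from 5.5, 6.6 and 5.6 to 7.8, 8.7 and 8.1, with a difference of 2.64 ± 0.63 (adjusted p = 0.35).

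The remaining lists held no gene that passed in the difference. Their median differences were 0 for checkpoint and costimulatory ligands, 0.08 for ER folding and stress genes, -0.14 for genes of flow, nitric oxide, prostaglandin and sphingosine-1-phosphate, 0.04 for complement and coagulation genes and 0.11 for housekeeping genes. For T cell, red cell, platelet and adipocyte markers they were -0.43, 0.13, -0.16 and -0.15.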

How the data were processed

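RNA of sorted lymph node cells was hybridised to Illumina bead arrays. The authors deposited bead intensities for each strip, from which a local background had already been subtracted, and a table of log2 values of 45281 probes by 48 strips. The steps between the deposited bead intensities and the deposited log2 values are not given in the sources used here. Depth is a median of 20 to 22 beads per probe code in BECs and LECs, and the number of arrays limits the precision.

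The 48 strips were brought to the same distribution of log2 values (quantile normalization), and the mean of both strips stood for each replicate. The background level of 5.62 was the mode of all values (5.04) plus 3 robust SDs (0.19). Of 34885 probes naming 1 gene symbol, 21306 had a group mean above it. The brightest probe over all replicates stood for a gene, which gave 13119 genes. Of these, 1096 were above the level in neither BECs nor LECs and were kept through FRC or DN groups. They count in the adjustment and in every share of all genes. The 10378 probes with no gene listed and 18 with several were left out.

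The 8 group means were fitted with limma 3.58.1 in R 4.3.3 (16 residual and 3.19 prior degrees of freedom), and (BEC tumor minus BEC naive) minus (LEC tumor minus LEC naive) was tested with Benjamini-Hochberg adjustment over all genes at 0.05. The script was tested on simulated data. Fold changes are log2 throughout. Named were the largest passing differences without overlap, the passing members of each list and the genes the paper names. Further genes were named after their values were seen. The comparison, lists and rules were chosen with earlier results of these data known. Alternatives changed the normalization, filter, samples, weights, strips, blocks and replicates, or started from the bead files with and without normexp (offset 50). Bead codes were linked to probes by their values, for 44167 of 45160 probes, with a correlation within strips of at least 0.9926. Figures were drawn with matplotlib 3.10.9 under Python 3.11.15. Sequences came from RefSeq.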

Additional observations from a re-analysis of the deposited data

Results flagged for a closer look

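*Adamtsl2* stood out because its change with lymphoma differed between the cell types by a test of the difference itself, which was -2.98 (log2, limma adjusted p = 0.018). All 3 tumor LEC replicates lay above all naive LECs, and all 3 tumor BEC replicates lay below all naive BECs. The gene was measured by 1 probe and was close to background in naive LECs and tumor BECs. Groups of 3 replicates were not tested for single outlying values.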

How the results depend on the processing

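No called difference changed its sign under any alternative run. Without DN cells, with weights for BECs and LECs alone, with single replicates left out of BECs and LECs alone and with pairs of marked replicates left out are alternatives chosen after seeing the data. The count of differing genes was 0 with the first strip alone, the second strip alone (433 BEC calls), BECs and LECs alone, an unmoderated test (78 LEC calls), bead files without and with normexp, and without DN cells (1499 BEC and 241 LEC calls). Array weights gave 174 genes (84 higher and 90 lower, with 3042 BEC and 494 LEC calls) and, for BECs and LECs alone, 10 genes (4 and 6, with 2557 and 287 calls). *Adamtsl2* was called in 8 of the 15 alternatives on the original list that kept all replicates. It was -3.04 (adjusted p = 0.11) and -2.92 (0.055) on the single strips, -1.63 (0.083) and -1.91 (0.081) from the bead files, and -2.98 with BECs and LECs alone (0.22), without moderation (0.06) and without DN cells (0.092).

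Replicate numbers were not taken to pair the samples, since same-numbered naive and tumor BECs correlated at 0.04, -0.17 and -0.22, although LECs correlated at 0.2, 0.23 and 0.15. With the replicate block within cell type 0 genes differed and *Adamtsl2* was -2.98 (adjusted p = 0.34), and with the block across cell types there were 98 BEC and 24 LEC calls and 1 gene differed.

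Leaving out 1 replicate gave 0 to 33 differing genes, 0 to 11 higher and 0 to 32 lower, with 183 to 1364 BEC calls and 11 to 187 LEC calls. Among BECs and LECs alone it gave 0 to 107, 0 to 73 and 0 to 34, with 248 to 2286 and 11 to 261 calls. The 33 genes came without tumor LEC replicate 3, 28 genes without tumor BEC replicate 3 and 11 without naive BEC replicate 2. *Adamtsl2* ranged from -3.43 to -2.74 and was called in 6 of 12 such fits, and in 2 of 12 among BECs and LECs alone. List medians ranged from 0.51 to 1.06 for mitosis, 0.29 to 0.77 for replication, 0.3 to 0.68 for ribosome biogenesis, -0.57 to -0.27 for HEV, -0.61 to -0.34 for pan-endothelial, -0.6 to -0.17 for tip cell, -0.42 to -0.21 for interferon, -0.35 to -0.15 for TGF-beta and 0.03 to 0.28 for matrix genes, and from -6.22 to -2.68 for acinar, 0.32 to 1.57 for leukocyte and 0.42 to 1.75 for fibroblast markers.

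Without tumor BEC replicates 1 and 2, 0 genes differed, 0 BEC calls were made, *Adamtsl2* was -2.59 (adjusted p = 0.93), and medians were -0.07 (mitosis), -0.1 (replication), 0.07 (ribosome biogenesis), -0.25 (HEV), -0.23 (pan-endothelial), -0.13 (interferon), -0.07 (TGF-beta) and -0.71 (leukocyte). Without tumor BEC replicates 2 and 3, 15 genes differed (6 higher, 9 lower, 325 BEC calls), with medians of -0.09 (matrix) and -0.26 (fibroblast). Without tumor LEC replicates 1 and 2, 7 LEC calls were made and the acinar median was 0.08. That median was -2.26 with genes above background in both cell types. In these fits a lone replicate is taken to vary like the other groups. Why these values moved was not tested. Probes at background carry no order, and LEC or BEC levels under 5.62 limit what a change could show.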

Other observations

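Of 4085 probes above background that name no gene or several, 0 passed in the difference (limma). For 218 of them the unadjusted p was under 0.05, a share close to that of the named genes. They cannot be named here.

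With array weights, which let the fit trust replicates unequally, the 174 genes that passed included *Nodal*, *Gsto1*, *Sgpp2*, *Slc26a10*, *Hapln3*, *Slc19a1* and *Fcgr2b* beside *Adamtsl2*. The weights of tumor BEC replicates 1, 2 and 3 were 2.77, 0.65 and 0.5. Those of naive DN replicate 2 and tumor DN replicate 3 were 0.13 and 0.23. The part of any replicate in this count was not tested. All 28 genes that passed without tumor BEC replicate 3 were among the 174. Of the 33 that passed without tumor LEC replicate 3, 5 were among them.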
